A study of Caenorhabditis elegans with 2 samples.

Results

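Divergent promoters are stretches of DNA from which 2 neighbouring protein-coding genes are transcribed away from each other, the left gene on the minus strand and the right gene on the plus strand. They were taken from the Ensembl annotation of Caenorhabditis elegans (WBcel235) as pairs whose most upstream annotated starts lay 1 to 1000 bp apart, with no other coding gene and no tRNA, snoRNA or snRNA gene between them. There were 1710 such gaps, out of 9003 gaps of up to 1000 bp between neighbouring coding genes, and they served 3420 of 19973 coding genes. The rule uses no measured value, but it was chosen with earlier results of these data known.

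Binding was that of CEH-44, a homeobox transcription factor of the CUT family, mapped with ChIP-seq, in which DNA bound by the protein is precipitated and sequenced. All chromatin came from 1 strain, RW12327, in which CRISPR had inserted TY1, EGFP and 3xFLAG sequences at the endogenous ceh-44 gene. Whole larvae of the fourth larval stage, 49 hours old and synchronised by starving first-stage larvae after bleaching, were used, and an antibody against GFP precipitated chromatin sonicated to 200 to 800 bp. There were 2 biological replicates, 1 group, and no untagged or second condition. A gap was called bound when the summit of a peak of the larger thresholded list made from both replicates (1027 peaks) lay between the starts. Since whole animals were used, a peak does not tell in which cells the protein was bound, and the strength of a peak cannot separate many weakly bound cells from few strongly bound ones.

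In the compact worm genome many neighbouring genes are transcribed from a shared intergenic stretch, which can hold sites acting on both genes or on either one. A transcription factor bound there therefore cannot be assigned to 1 gene by distance alone. Many worm messages are also trimmed at their 5′ end by trans-splicing to a splice leader, so an annotated start can lie downstream of the place where transcription begins. CUT family proteins carry a homeodomain and 1 or more CUT domains, both of which bind DNA, and CEH-44 is known as a member of the family made throughout the nervous system.

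Some of the strongest bound gaps are shown first as examples, while the results below rest on all bound gaps. Each sequence is the plus strand of WBcel235 (the same sequence as ce11) from RefSeq, 5′ to 3′, for the summit, which is base 51, and the 50 bases on either side of it, or for the whole gap where it held at most 300 bp. These are the 10 strongest by the authors' deposited signal among those whose chromosome was used for sequences here. Capitals mark 7 short words on either strand, counted further below. They are GAGAGA, a repeat of the step GA, and CGAGAG, which overlaps that repeat in part. Further marked words are GAGCGC and, with the same run of G and C at its other end, the word GCGCAC. The word CGCGCC has the letters C and G alone, while the word ACGCAG is mixed. The longest marked word is CGCTCCA, which shares letters with some of the others where they overlap. They were chosen after the data were seen and are letters in a window, not known sites. The windows lie at chrIII:5172626-5172726 (prp-19/K10D2.5), chrIII:10759201-10759301 (K01G5.10/tasp-1), chrIV:654868-654968 (rpl-15/K11H12.8), chrIII:10461293-10461393 (ecps-1/atx-2), chrIV:7947082-7947182 (czw-1/F20D12.12), chrII:11759423-11759523 (F44E5.4/F44E5.5), chrIV:1745780-1745880 (Y41D4A.6/Y41D4A.4), chrIV:12391278-12391378 (rps-23/dpm-3), chrIV:390469-390559 (ears-2/uncp-18, the whole gap) and chrII:14154515-14154615 (Y48B6A.1/rpl-43).
prp-19/K10D2.5: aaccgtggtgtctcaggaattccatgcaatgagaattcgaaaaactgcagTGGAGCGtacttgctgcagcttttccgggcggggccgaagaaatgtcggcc
K01G5.10/tasp-1: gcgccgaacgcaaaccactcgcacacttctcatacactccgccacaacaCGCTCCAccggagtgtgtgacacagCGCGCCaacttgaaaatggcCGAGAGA
rpl-15/K11H12.8: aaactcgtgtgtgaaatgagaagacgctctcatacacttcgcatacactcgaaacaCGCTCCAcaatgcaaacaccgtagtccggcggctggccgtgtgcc
ecps-1/atx-2: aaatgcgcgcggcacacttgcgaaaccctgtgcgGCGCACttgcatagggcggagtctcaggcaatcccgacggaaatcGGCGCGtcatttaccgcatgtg
czw-1/F20D12.12: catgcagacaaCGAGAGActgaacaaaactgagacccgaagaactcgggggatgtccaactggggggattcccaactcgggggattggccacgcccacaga
F44E5.4/F44E5.5: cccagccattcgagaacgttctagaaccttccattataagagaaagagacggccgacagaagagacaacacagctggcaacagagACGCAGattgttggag
Y41D4A.6/Y41D4A.4: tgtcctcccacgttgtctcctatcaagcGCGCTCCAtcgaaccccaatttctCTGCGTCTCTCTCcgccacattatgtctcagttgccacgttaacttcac
rps-23/dpm-3: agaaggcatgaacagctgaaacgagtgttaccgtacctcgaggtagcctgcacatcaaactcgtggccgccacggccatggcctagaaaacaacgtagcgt
ears-2/uncp-18: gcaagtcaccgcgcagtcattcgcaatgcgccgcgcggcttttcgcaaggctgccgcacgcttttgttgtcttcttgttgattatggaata
Y48B6A.1/rpl-43: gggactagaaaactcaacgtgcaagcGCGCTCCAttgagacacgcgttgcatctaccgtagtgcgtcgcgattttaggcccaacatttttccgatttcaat

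The capitals show how unevenly the words fell. The window of K01G5.10/tasp-1 held 4 of the 7 words and that of Y41D4A.6/Y41D4A.4 also held 4, while those of rps-23/dpm-3 and ears-2/uncp-18 held 0. In the ears-2/uncp-18 gap the summit is base 36 of 91. The window at czw-1/F20D12.12 lay in partly repeated sequence, where 62.5% of the 30-base words around the summit occurred elsewhere in the genome, so reads there may have been shared with other loci. At the other 9 windows printed none was repeated.

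CEH-44 summits were found in 108 of the 1710 divergent gaps, a share of 6.32% (exact 95% binomial interval 5.21 to 7.57%, which covers counting error only). Over divergent, tandem and solo promoter regions together the share was 1.93%. Tandem gaps, which lie between neighbours on the same strand and hold 1 coding promoter, were bound in 63 of 5514 cases (1.14%, interval 0.879 to 1.46%). Solo promoters, the 1000 bp before a coding gene with no other coding gene there, were bound in 151 of 9485 cases (1.59%, interval 1.35 to 1.86%). These 151 windows held only 138 summits, so some summits were counted in more than 1 window. Divergent neighbours over 1000 bp apart can enter as 2 solo windows, which overlap in the nearer pairs. Of divergent pairs 1001 to 1500 bp apart, 27 of 455 were bound (5.93%). The solo interval, and that of any ratio to the solo share, treats windows as independent. Convergent gaps, which lie between 2 gene ends and hold no coding promoter, were bound in 9 of 1779 cases (0.506%, interval 0.232 to 0.958%). The divergent interval lay above each of the other 3.

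The divergent share was 5.53 times the tandem share (95% interval 4.07 to 7.51, counting error only), 3.97 times the solo share (3.12 to 5.05) and 12.48 times the convergent share (6.35 to 24.6). The last rests on 9 bound convergent gaps. It was 4.36 when gaps with a small RNA gene were kept, and 17.3 and 32.8 in the own lists of replicates 1 and 2. A divergent gap holds 2 coding promoters, and a tandem gap or solo region holds 1. Counted per promoter, there were 3.16 bound gaps for each 100 divergent promoters. For each 100 tandem promoters there were 1.14, a ratio of 2.76. For each 100 solo promoters there were 1.59 bound windows, some of them sharing a summit. Counted per promoter, the solo ratio of 3.97 is thus divided by 2 as well. Strand is not the only difference between these classes, since a tandem gap also borders the end of the upstream gene. No test was made over gaps, which are not replicates of the experiment.

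The same order was seen in each replicate's own thresholded list, the only replicate check the files allow. Replicate 1 alone marked 50 divergent gaps (2.92%, interval 2.18 to 3.84%) and 27 tandem gaps (0.490%), against 0.79% of all promoter regions in that list. Replicate 2 alone marked 63 divergent gaps (3.68%, interval 2.84 to 4.69%) and 24 tandem gaps (0.435%), against 0.958% of all promoter regions. The ratio of divergent to tandem was 5.97 in replicate 1 and 8.46 in replicate 2, and per promoter it was 2.99 and 4.23. In the authors' conservative list of both replicates, 106 divergent gaps were bound (6.20%, against 1.86% of all promoter regions), of which 95 were also bound in the larger list.

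**Figure D1:**
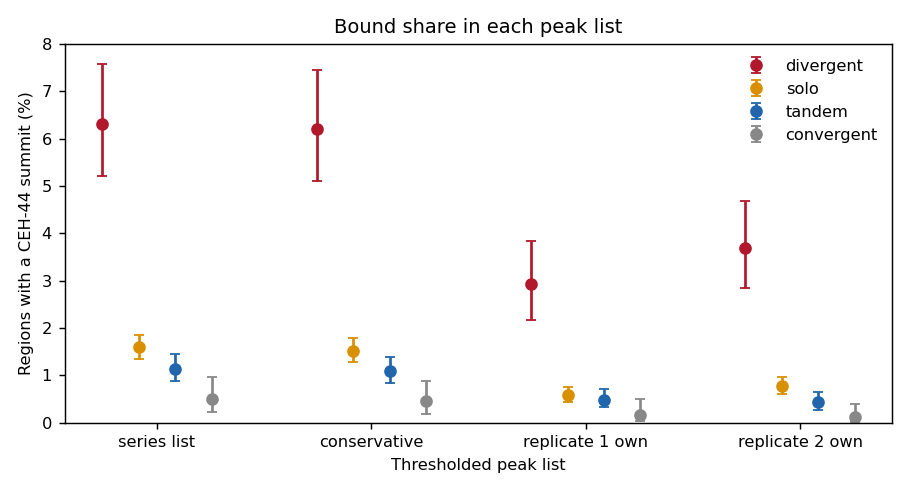
Bound share of each class of region (vertical axis, percent of regions with a summit) in the 4 thresholded lists (horizontal axis), with exact 95% binomial intervals as bars. Divergent gaps lie above solo, tandem and convergent regions in all 4 lists, at 6.32%, 6.20%, 2.92% and 3.68%.

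By spacing of the starts, the bound share was lowest in the shortest class and differed little between the others. It was 2.85% at 1 to 200 bp (7 of 246), 6.62% above that and up to 400 bp (31 of 468), 7.42% up to 600 bp (29 of 391), 7.92% up to 800 bp (27 of 341) and 5.30% up to 1000 bp (14 of 264), each class starting where the one before it ends. The 5 intervals overlap one another. Tandem gaps of the same lengths were bound in 0.322%, 1.47%, 2.31%, 1.17% and 1.17% of cases, so the divergent share was 8.85, 4.51, 3.21, 6.75 and 4.54 times as high. These ratios rest on few tandem gaps: in the replicates' own lists they were 7.59 and 15.2 in the shortest class and 18.2 and 28.5 in the longest, and in the class up to 800 bp they were 2.86 and 7.004. In every class and list run the divergent share was the higher. With tandem gaps weighted to the divergent mix of lengths, their share was 1.39% and the ratio 4.54. All ratios in this paragraph are per gap. A divergent gap holds 2 coding promoters and a tandem gap 1, so counted per promoter each ratio is divided by 2.

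Longer gaps offer more sequence to fall in, and per length the order was different. Summits were densest in the 2 shortest classes, at 215.65 and 224 per Mb, and thinned to 148, 114 and 63.5 per Mb in the longer ones. Over all divergent gaps there were 129.9 summits per Mb, against 28.7 in tandem gaps, 14.5 in solo promoters and 14.2 in convergent gaps. The solo length counts overlapping windows in full, while a shared summit counts once, so the solo density is understated. The limit of 1000 bp was not an edge in the data. Pairs over 900 and up to 1000 bp apart were bound in 6 of 129 cases (4.65%), and pairs over 1000 and up to 1100 bp apart, outside the rule, in 7 of 96 (7.29%).

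**Figure D2:**
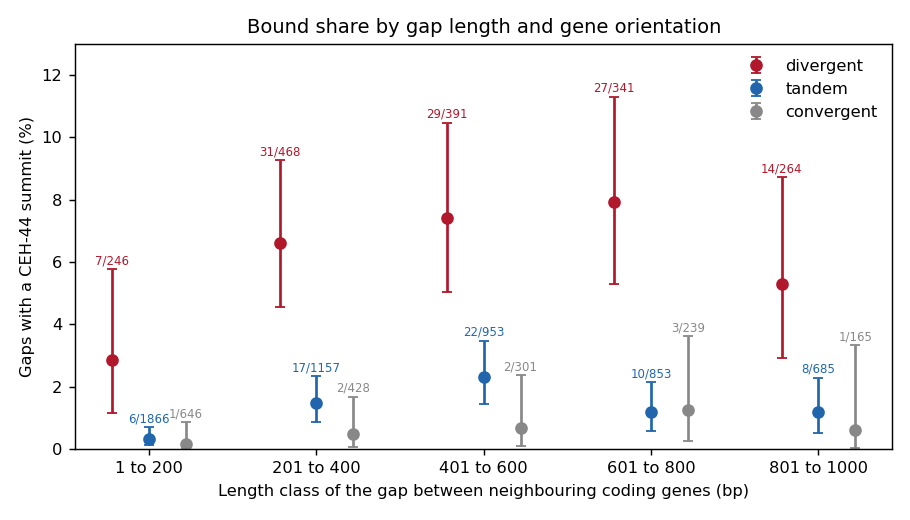
Share of gaps with a CEH-44 summit (vertical axis, percent) by length of the gap (horizontal axis, bp) for divergent, tandem and convergent neighbours, with exact 95% binomial intervals and the counts printed above each. Divergent gaps run from 2.85% to 7.92% and tandem gaps from 0.322% to 2.31%.

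Small RNA genes carry many CEH-44 peaks in these larvae, so their place near the divergent gaps was counted. The rule had left out 8 divergent gaps with a tRNA, snoRNA or snRNA gene inside, of which 4 were bound (H27M09.5/syp-4, chst-1/C41C4.9, tim-1/Y75B8A.23 and srz-97/clec-57). Among the 108 bound gaps kept, 1 had such a gene within 250 bp of the summit, tmem-107/rps-26, where it lay 91 bp away. Chromatin was sonicated to 200 to 800 bp, and some other gaps had such a gene within 800 bp, as given for ribosomal protein genes below. With gaps that had a small RNA gene within 250 bp left out, 105 of 1698 divergent gaps were bound, 6.18%.

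A candidate peak, meaning any entry of the ranked list of 115557 candidates for both replicates, lay in 926 of the 1710 divergent gaps (54.2%). For tandem gaps this was 37.8% and for solo promoters, which are all 1000 bp long, 71.0%. Per length, candidates were at 1298 per Mb in divergent gaps, 1100 in tandem gaps and 992 in solo promoters, where overlapping windows were again counted in full. Of 1089 candidates in divergent gaps, 109 were in the thresholded list, 10.01% (interval 8.29 to 11.9%). The same share was 2.61% in tandem gaps, 1.47% in solo promoters and 1.38% in convergent gaps. Per length, candidates were thus nearly as dense in tandem gaps, and the larger difference was in how often a candidate passed.

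The chromosomes were not alike. Divergent gaps were bound in 8.86% of cases on chromosome I (28 of 316), 6.37% on II (20 of 314), 9.19% on III (26 of 283), 6.29% on IV (19 of 302) and 3.36% on V (14 of 417). On X, 1 of 78 was bound (1.28%, interval 0.0325 to 6.94%), the pair plp-2/rbg-1. The interval for X overlaps that of the autosomes together (6.56%, interval 5.40 to 7.87%), so a lower share on X was not resolved with 78 gaps. Among the autosomes chromosome V had the lowest share for divergent gaps, and it also had the lowest for tandem gaps, 5 of 1501 (0.333%).

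By the rule a summit lies between the starts, so only its place within the gap was described. Within 100 bp of a start lay 31 of the 109 summits, 28.4%, and 38.9% of candidates that did not pass. Of 109 summits (1 gap held 2), 84 fell in the middle 3 of 5 equal parts of the gap, 77.1% (interval 68.0 to 84.6%). Of the 980 candidates in divergent gaps that did not pass, 62.2% did so (interval 59.1 to 65.3%). Within 100 bp of the midpoint lay 66 of the summits (60.6%) and 40.4% of the candidates that did not pass, whose gaps were longer (median 613.5 against 513 bp). In tandem gaps 49 of 64 summits were in the middle 3 parts (76.6%), so the placement was not particular to divergent gaps. In the replicates' own lists the share was 74.0% of 50 summits in replicate 1 and 70.3% of 64 in replicate 2, and both of those intervals include the share of candidates that did not pass there, 61.8% and 63.7%.

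The median distance from a summit to the nearer start was 152 bp (quartiles 85 and 216). By spacing class the medians were 36, 115, 176, 177 and 298 bp; the rule that a summit lies between the starts limits this distance in short gaps. The left gene's start was nearer for 46 summits and the right gene's for 63. Most peaks were 256 bp wide (median and both quartiles), and the peak interval covered both starts in 4 of the 108 gaps, 1 start in 36 and neither in 68. Of the 109 summits, 86 lay within 500 bp of both starts. The shortest bound gap was that of ears-2/uncp-18, 92 bp, with its summit 36 bp from the start of ears-2 (mitochondrial glutamyl-tRNA synthetase) and 56 bp from that of uncp-18 (a syntaxin-binding protein). Next were T26A8.4/pdtf-1 at 145 bp and F10E9.7/F10E9.5 at 151 bp. The longest were larp-1/wip-1 at 989 bp, E04F6.6/pcrg-1 at 984 bp and rab-11.1/rpl-7 at 981 bp.

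**Figure D3:**
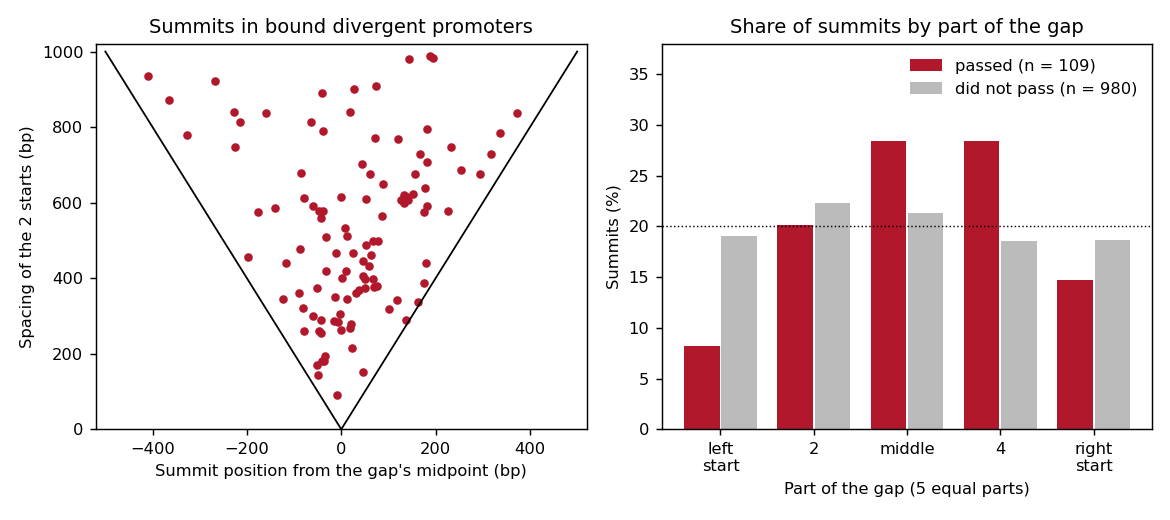
Left, each of the 109 summits by its distance from the gap's midpoint (horizontal axis, bp, right gene to the right) and the spacing of the starts (vertical axis, bp), with lines at the starts. Right, percent of summits in each of 5 equal parts of the gap for the 109 that passed and the 980 candidates that did not, with a dotted line at an even spread; the middle 3 parts hold 77.1% and 62.2%.

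The authors' signal, a value per peak on a scale that is not stated, was used only within a list. Divergent summits had a median of 82.4 (quartiles 69.7 and 109), against 75.96 for the whole list, 74.2 for tandem and 73.7 for solo summits. Above the list's median lay 63 of 109, 57.8% (interval 48.0 to 67.2%), an interval that includes an even split. In replicate 2's own list it was 32 of 64. The share was 43.8% for tandem (interval 31.4 to 56.7%) and 45.7% for solo summits (37.2 to 54.3%), both overlapping the divergent interval. Among the 332 peaks outside these classes and away from small RNA genes it was 34.9% (29.8 to 40.3%), below the divergent interval, and at small RNA genes it was 64.4%. In the replicates' own lists the interval of those other peaks overlapped that of divergent summits. Of the 100 strongest peaks in the series list, 11 marked a divergent gap, near the share over the whole list (109 of 1027 summits, 10.6%).

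The strongest bound gap was that of prp-19, which encodes a core factor of the spliceosome, and K10D2.5, an uncharacterised gene. The series list gave it a signal of 287, and the overlapping candidates of replicates 1 and 2 had 132 and 160. The summit lay 44 bp from the start of K10D2.5 and 631 bp from that of prp-19. The next was supr-1/dnj-28 (dnj-28 encodes a J domain protein, a class of co-chaperones of Hsp70), where the series list gave 255 and the replicates 110 and 146. These 2 gaps led all bound divergent gaps in both replicates.

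K01G5.10/tasp-1 followed with 222 (107 and 115 in replicates 1 and 2); tasp-1 is a homologue of the protease Taspase. The gap of rpl-15 (ribosomal protein eL15) and K11H12.8 had 206 (91.0 and 114). The gap of ecps-1 and atx-2, the worm ataxin-2, had 192 (87.0 and 100) and was the only divergent gap with 2 summits. The gap of czw-1 (kinetochore protein ZW10) and F20D12.12 had 168 (82.4 and 86.1) and was the most repeated of these, with 62.5% of 30-base words repeated against 18.1% at supr-1/dnj-28. In all of these replicate 2 was the higher, whereas F56G4.6/wbp-4 (series signal 150) had 85.5 in replicate 1 and 64.5 in replicate 2.

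F44E5.4/F44E5.5 (147 in the series list, 61.8 and 82.5 in the replicates) is a pair of Hsp70 genes, chaperones that bind unfolded proteins. The 2 genes carry the same RefSeq product name, so reads in their coding parts may be shared, but no 30-base word around the summit was repeated. Y41D4A.6/Y41D4A.4 had 146 (61.3 and 80.9). Then came 3 gaps with a gene for a small-subunit ribosomal protein: tmem-107/rps-26 with 141 (71.2 and 65.5), rps-19/hsr-9 with 135 (63.1 and 63.7) and rps-23/dpm-3 with 127 (65.7 and 61.6). All 12 of these gaps had a summit in both replicates' own lists.

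All 108 bound gaps had an overlapping candidate in both replicates' ranked lists, but only part of them passed in each. A summit of the own list lay in the gap in both replicates for 35 (32.4%, interval 23.7 to 42.1%), in replicate 1 alone for 13, in replicate 2 alone for 26 and in neither for 34. Of the 63 bound tandem gaps, 11 (17.5%, interval 9.05 to 29.1%) had one in both, and the intervals overlap. The median candidate signal was 37.6 in replicate 1 and 47.4 in replicate 2, and 79 of 108 were higher in replicate 2. Each list has its own scale, so this difference cannot be read as stronger binding. Across the 108 gaps the replicates' signals had a Spearman's rho of 0.37 and a Pearson's r of 0.48 on the log2 scale; this describes gaps that both replicates helped to choose.

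The weakest bound gaps show the other end. Y87G2A.18/Y87G2A.1 had a series signal of 55.9 and replicate signals of 29.2 and 27.1. The gap of pak-2, a p21-activated kinase, and C45B11.9 had 57.4 (37.8 and 36.1), and C17H12.2/vha-8 had 57.5 (20.8 and 38.8). None of these 3 had a summit in either replicate's own list. The replicates differed most at sqv-3/vha-1, with 13.6 in replicate 1 and 61.7 in replicate 2, a gap singled out after its values were seen.

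**Figure D4:**
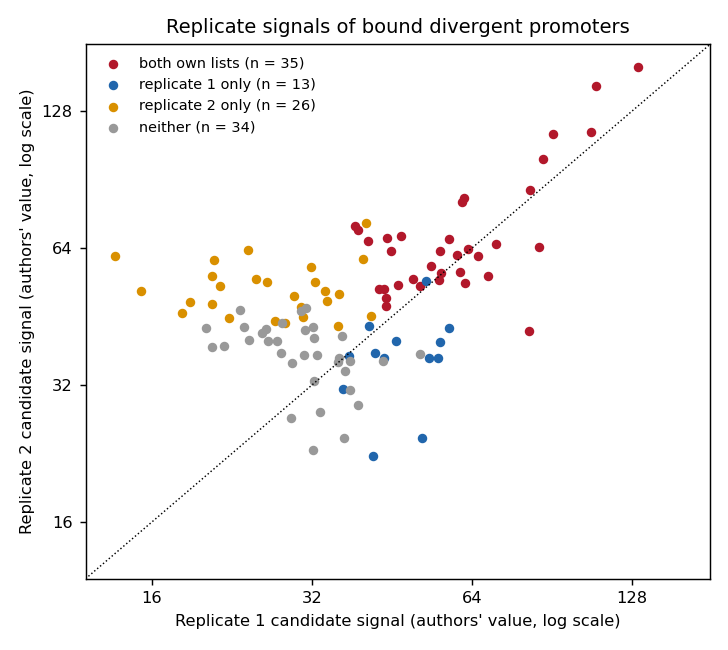
Candidate signal of the 108 bound divergent gaps in replicate 1 (horizontal axis) and replicate 2 (vertical axis), both the authors' values on a log scale, coloured by which replicate's own list also had a summit there, with a dotted line of equal values. The 35 gaps in both lists include the highest values, and 79 of the 108 lie above the line.

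The genes at bound gaps were read by 19 lists of gene names, which miss genes that carry a sequence name or another symbol, most of them general cell functions and some of them families with restricted roles (chemoreceptors, nuclear hormone receptors, collagens and neuropeptides). Gaps with at least 1 listed gene were bound in 45 of 433 cases (10.4%, interval 7.68 to 13.7%), and gaps with none in 63 of 1277 (4.93%, interval 3.81 to 6.27%). These shares are set beside 6.32% over all divergent gaps. Of the 45 bound gaps with a listed gene, 14 held a cytosolic ribosomal protein gene, and the contrast without that list was not computed. In replicate 1's own list the shares were 4.85% (interval 3.03 to 7.32%) and 2.27% (1.53 to 3.25%), with overlapping intervals. In replicate 2's they were 7.39% (5.11 to 10.3%) and 2.43% (1.66 to 3.43%). Over all divergent gaps these lists marked 2.92% and 3.68%.

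Cytosolic ribosomal protein genes gave the largest count, with 14 of 45 gaps bound (31.1%, interval 18.2 to 46.6%). They encode the proteins of the ribosome, which every growing cell makes in bulk. The strongest 4 were rpl-15/K11H12.8, tmem-107/rps-26, rps-19/hsr-9 and rps-23/dpm-3, all described above. A snoRNA gene lay 91 to 673 bp from the summit at tmem-107/rps-26, rpl-7A/set-21, rps-10/rpl-24.1, rpl-15/K11H12.8, rab-11.1/rpl-7 and rps-23/dpm-3. At the other bound gaps of this list the nearest small RNA gene was 4696 bp or more away. The part of such neighbours in the share of this list was not tested. In 1 bound gap both genes encode ribosomal proteins, rps-10/rpl-24.1, where the series signal was 77.2 and the replicates had 30.6 and 46.7. The share was 26.7% in the conservative list, 22.2% in replicate 1 and 26.7% in replicate 2. Ribosomal protein genes in tandem gaps were bound in 7 of 24 cases (29.2%) and as solo promoters in 3 of 7, so in the series list their high share was not particular to divergent gaps. In replicate 2's own list, however, 1 of 24 tandem gaps was bound, and in replicate 1's it was 4 of 24. Genes named mrpl or mrps, for proteins of the separate ribosome of mitochondria, were at 25 divergent gaps, of which 0 were bound (interval up to 13.7%). The names miss some such genes. With RefSeq product names added, a choice made after the data were seen, 2 of 28 gaps were bound (7.14%, interval 0.877 to 23.5%), R186.8/lin-46, whose peak is partly repeated sequence, and let-630/hcp-6.

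Genes with chaperone names were at a summit in 6 of 25 gaps (24.0%, interval 9.36 to 45.1%), and with product names added, which brings in the Hsp70 pair F44E5.4/F44E5.5, in 7 of 27 (25.9%). They include supr-1/dnj-28, Y22D7AL.10/hsp-60 (series signal 116, with 40.4 and 72.6 in replicates 1 and 2), cct-8/Y55F3AR.2 (92.4, with 32.4 and 54.0) and T10B5.4/cct-7 (83.4, with 46.0 and 40.0). The hsp-60 gap pairs the mitochondrial chaperonin with Y22D7AL.10, the 10 kDa co-chaperonin that caps it, so both partners of a known complex share the bound stretch. The cct genes encode subunits of the cytosolic chaperonin that folds actin and tubulin; besides cct-8 and cct-7, cct-1 was at a bound gap (mig-5/cct-1). The chaperone count was 2 of 25 in replicate 1 and 5 of 25 in replicate 2.

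Of 20 divergent gaps with a gene for the nuclear pore or transport through it, 4 were bound (npp-3/top-2, T23H2.3/npp-12, ran-1/dkc-1 and npp-14/cel-1). For splicing factors 5 of 30 gaps were bound, among them prp-19/K10D2.5, snx-13/snr-1, dnc-1/lsm-7 and rsp-2/rsp-1, the last a pair of SR proteins. For membrane traffic genes 5 of 33 gaps were bound, among them vps-51/lin-35, sec-61.B/trap-3 and rab-11.1/rpl-7. In sec-61.B/trap-3 both genes encode proteins of, or attached to, the channel that passes proteins into the endoplasmic reticulum, and in his-67/his-68, outside the lists, both encode histones. The intervals for the nuclear pore, splicing factor and membrane traffic lists reach down to 5.73%, 5.64% and 5.05%, below the share over all divergent gaps. In replicate 1's own list 0 of 20 nuclear pore, 3 of 30 splicing factor and 4 of 33 membrane traffic gaps were bound. In replicate 2's own list these counts were 2, 4 and 3. Over all divergent gaps those lists marked 2.92% and 3.68%. In the series list solo promoters of these 3 lists were bound in 2 of 10, 1 of 10 and 7 of 32 cases. Their tandem gaps were bound in 0 of 9, 1 of 18 and 0 of 47.

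The remaining lists held few bound gaps. DNA replication and repair genes had 3 of 24, translation factors 2 of 20, the ubiquitin pathway 2 of 19, collagens 2 of 20 and the vacuolar ATPase 2 of 6. The respiratory chain and ATP synthase had 1 of 20 by name (atp-5/lmtr-3) and 5 of 49 with product names added (10.2%, interval 3.40 to 22.2%), the others being F29B9.11/jmjd-1.2, R53.4/psf-1, T27E9.2/ant-1.1 and rbc-2/ndua-8. The proteasome had 1 of 20 (rpn-9/T06D8.9), tRNA synthetases 1 of 10 (ears-2/uncp-18) and nuclear hormone receptors 1 of 15 (nhr-142/F44E7.9). RNA polymerase and general transcription factors had 0 of 12, mitochondrial import 0 of 2 and neuropeptides 0 of 7. Of 108 divergent gaps with a chemoreceptor gene, 0 were bound (interval up to 3.36%), as were 0 of 422 tandem gaps and 2 of 706 solo promoters. Thus no divergent gap of the chemoreceptor or neuropeptide list was bound, though 7 gaps are too few to read the latter. The lists were not split by chromosome, and bound shares ran from 1.28% on X to 9.19% on III. The part of chromosome in the shares of the lists was not tested.

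**Figure D5:**
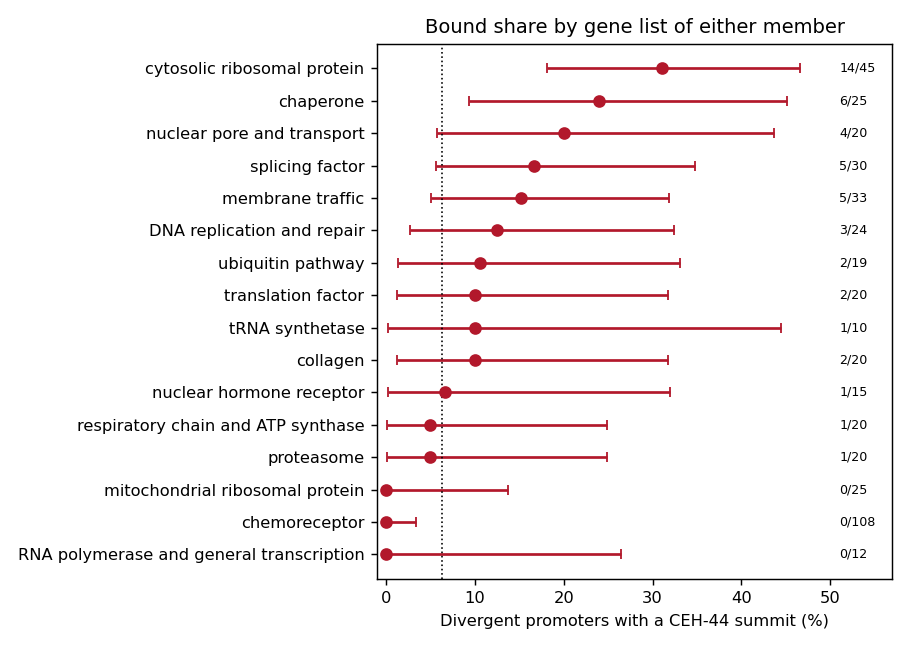
Percent of divergent gaps with a CEH-44 summit (horizontal axis) among gaps where at least 1 of the 2 genes is on the list (vertical axis, lists with 10 or more gaps), with exact 95% binomial intervals and counts; the dotted line is the 6.32% of all divergent gaps. In the series list, which is shown, the intervals of cytosolic ribosomal protein genes (31.1%) and chaperones (24.0%) lie above the line. That of chemoreceptors (0 of 108) lies below it.

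Bound gaps also differed in what followed their genes. In worms, closely spaced genes on 1 strand are often transcribed together as an operon, so the first gene behind a gap can stand for several. At 63 of the 108 bound gaps (58.3%, interval 48.5 to 67.7%) at least 1 of the 2 genes was followed within 500 bp by another coding gene on its strand, against 37.9% of the 1602 unbound gaps (interval 35.5 to 40.3%). Put the other way, 4.33% of 1040 gaps with neither gene followed were bound, 8.35% of 539 with 1 gene followed, and 13.7% of 131 with both followed (interval 8.35 to 20.8%). For tandem gaps the share was 0.989% where the gene was not followed and 1.66% where it was, with overlapping intervals. Distance alone does not show an operon, and operon annotation was not used here.

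The letters under the summits differed from the rest of the gaps in base composition. The median GC content of the windows, 50 bp to either side, was 49.5% at divergent summits, 37.6% at candidates that did not pass and 33.7% at the centres of unbound divergent gaps. Summits in tandem gaps and in solo promoters had 49.5% as well. How far GC content moves with the recovery of fragments was not tested.

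The words looked for first were 3 AT-rich words of a kind known to be bound by CUT homeodomain proteins, each on both strands within 50 bp of the summit. ATCGAT was in 5 of 109 windows (4.59%, against 5.31% of unbound centres and 5.41% of candidates that did not pass). ATCAAT was in 3.67% (10.9% of unbound centres and 8.98% of candidates that did not pass), and ATTAAT in 5.50% (8.93% and 5.31%). The interval for ATCAAT lies below that of the unbound centres and overlaps that of the candidates, and those of ATCGAT and ATTAAT overlap both. The part of GC content in these shares was not tested. That these letters are rare in the windows says nothing about how the factor is held there.

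Words with more G and C were counted next. GAGAGA was in 14.7% (interval 8.63 to 22.7%) of divergent summit windows and 7.49% of unbound centres (interval 6.25 to 8.89%, which overlaps), and 9.80% of candidates that did not pass. CGCGCG was in 7.34%, 2.56% and 4.39%, again with overlapping intervals. To find others without using the divergent summits, all words of 6 letters were ranked, after the data had been seen, by their excess in 543 summits outside divergent gaps and away from small RNA genes over 114530 candidates that did not pass. Leaving the candidates in divergent gaps out of the latter gave the same first 6. The first 6 were the words of that length marked in the printed windows. In divergent windows CGCGCC was in 24 of 109 (22.02%, interval 14.6 to 31.0%, against 5.41% of candidates that did not pass in divergent gaps), GAGCGC in 22 (20.2%, against 5.41%) and ACGCAG in 20 (18.3%, against 5.92%). GCGCAC was in 12.8% (against 6.53%) and CGAGAG in 11.9% (against 5.41%).

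At least 1 of these 6 words was in 78 of 109 divergent windows (71.6%, interval 62.1 to 79.8%), 27.3% of divergent candidates that did not pass, 21.2% of unbound centres and 45 of 64 tandem windows (70.3%). The tandem summits were among those used to choose the words, so their share is no separate check, while the divergent summits were not. All 6 hold at least as many G and C as A and T, base composition was not matched, and its part in these shares was not tested.

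A further word was noticed by eye in the printed windows. CGCTCCA, or TGGAGCG on the other strand, was in 4 of the 6 strongest divergent gaps (prp-19/K10D2.5, supr-1/dnj-28, K01G5.10/tasp-1 and rpl-15/K11H12.8), 5 of the 12 strongest and 11 of all 108. At the 99 divergent summits whose windows are not printed it was in 6, or 6.06% (interval 2.26 to 12.7%), against 2.35% of divergent candidates that did not pass (interval 1.49 to 3.50%, which overlaps), 2.37% of unbound centres, 7.81% of tandem summits and 4.97% of the 543 other summits. The other 5 carriers are printed windows, which prompted the choice of the word, so they are a description only.

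Some of the printed windows also share longer runs. Among the 45 pairings of the 10 windows the median longest run in common, on either strand, was 7 bases. The windows of Y41D4A.6/Y41D4A.4 and Y48B6A.1/rpl-43 share 14 bases that contain this word, and those of K01G5.10/tasp-1 and rpl-15/K11H12.8 share 12 that contain it too. The windows of F44E5.4/F44E5.5 and Y41D4A.6/Y41D4A.4 share 11 bases around ACGCAG. For these comparisons the full window was taken at each summit, also where the printed gap is shorter.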

How the data were processed

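Both replicates were analysed from the deposited peak lists, on ce11 per the labels. Per the deposited descriptions, a control library entered the thresholded lists, which were cut by irreproducible discovery rate (IDR). That library was not analysed here. Which aligner and peak caller were used is not given in the sources used here, nor is the depth, so no interval could be set on a signal. The signal per peak is the authors' deposited value on an unstated scale. The ranked lists hold the deposited −log10 IDR, and every thresholded divergent summit had at least 2.

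Neighbours were gaps free of other coding genes, between most upstream starts or gene ends. RefSeq names were matched for 19962 of 19973 coding genes. Shares have exact 95% Clopper-Pearson intervals, and ratios have 95% Katz log intervals. All cover counting error only. Per the labels the replicates are biological. Python 3.11.15, numpy 2.4.6, scipy 1.17.1 and matplotlib 3.10.9 were used, and the gap and share code was tested on simulated data. The members, gene lists, first 5 words and alternatives were chosen with earlier results of these data known, so no test was run over them. Named gaps were the 12 strongest, the 3 shortest and 3 longest bound gaps, those with 2 summits, and up to 4 per list by signal. The weakest gaps, his-67/his-68, further list members and the other words were chosen after their values were seen, as were the alternatives for solo and convergent regions and for repeated peaks, and lists by product name.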

Additional observations from a re-analysis of the deposited data

How the results depend on the processing

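The divergent share stayed above the tandem, solo and convergent shares in every setting run for both. Leaving out a replicate, read from the other replicate's own list, gave divergent shares of 2.92 to 3.68%, tandem 0.435 to 0.490%, solo 0.580 to 0.770% and convergent 0.112 to 0.169%. The ratio of divergent to tandem was then 5.97 to 8.46, and 7.24 to 8.48% of divergent candidates passed. With only the stronger part of the list, above its median signal, the shares were 3.63% divergent, 0.508% tandem, 0.717% solo and 0.112% convergent. With gaps holding a small RNA gene kept, convergent gaps were bound in 1.496% of cases. Settings that changed the divergent share by less than the width of its interval were the conservative list, any overlap of a peak with the gap, limits of 500 and 2000 bp, neighbours in order of start and leaving out partly repeated peaks. In the wider window of 100 bp to either side ATCGAT was in 11.0% of summit windows and 9.55% of unbound centres, and ATCAAT in 11.9% and 22.1%. No paired analysis was possible because there is 1 group and no test between groups. Depth is unknown, so an unbound gap is one where no summit passed, not one shown to lack the protein, and the replicates' different numbers of peaks cannot be set against their depth.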
